A study of Rattus norvegicus with 9 samples.

Results

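The baseline transcriptome of normal rat vestibular epithelia was described from the control libraries of an RNA-seq series on chronic ototoxicity. The members were the 3 libraries whose sample titles carry the label Control, of 9 libraries in the series, and no library of a treated rat was used. Each of these libraries came from 1 male Long-Evans rat that drank water without 3,3'-iminodipropionitrile (IDPN), the nitrile given to the other rats of the experiment, and it held the RNA of 6 cristae and 2 utricles, isolated from the neighbouring tissue and pooled. The age of the rats of this experiment was not given in the sources used here, and the labels do not say at which of the times of exposure each control rat was killed. Whole tissue was extracted, so every cell type of the dissected pieces contributed RNA, and fewer cells of a type and less RNA per cell cannot be told apart. With a single group there was no contrast to test, and each value is given as a description with the spread between the 3 rats (SD, n = 3).

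The cristae of the semicircular canals and the utricle are the sensory patches that detect rotation and linear acceleration of the head. Their hair cells (HC) turn the deflection of an apical bundle of stereocilia into receptor potentials, and they release glutamate onto afferent nerve endings. Type I HCs (HCI) are enclosed by a calyx terminal, and type II HCs (HCII) contact small bouton endings. Supporting cells surround the HCs, couple to each other through connexin gap junctions and secrete the gels that load the bundles, which are the otolithic membrane of the utricle and the cupula of each crista. At the edge, dark cells secrete potassium into the endolymph, and transitional cells lie between them and the sensory patch. The stroma under the epithelium holds nerve fibres with their Schwann cells, vessels, fibrocytes and macrophages, whereas the cell bodies of the afferent neurons lie in a separate ganglion.

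The deposited table gave estimated counts for 32883 genes, which were scaled to CPM, the counts per 1000000 counts of a library, with the TMM method, which corrects library totals for differences in composition. A CPM is a share of the reads. It grows with the length of a transcript as well as with its number of copies, and transcript lengths were not available, so ranks of genes are ranks of reads and no gene is called more highly expressed than another. Control replicates 1, 2 and 3, numbered here in the order of the sample records, had totals of 38023198, 32251682 and 38044824 counts. A level of 3 counts, taken as the smallest visible level of a library, was 0.0785, 0.0908 and 0.0812 CPM. PCR copies were not marked by molecular identifiers, and the error from counting, including this floor, is therefore the least error that a value can have.

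Control replicate 3 stood apart from the other libraries. When each library was thinned to 32251682 counts, 17036, 17134 and 15476 genes had at least 1 count in replicates 1, 2 and 3. A count of 0 in that library alone was found for 173 genes in replicate 1, 158 in replicate 2 and 1344 in replicate 3, and 140 of the last group had at least 1 CPM in both other libraries. Over the 13596 genes with a mean of at least 1 CPM, the correlation across genes of log2(CPM + 0.5) was 0.982 between replicates 1 and 2, 0.950 between 1 and 3 and 0.946 between 2 and 3. Genes are not independent replicates, so these coefficients only order the pairs. No library was a copy of another, with a chi-square per gene of 21.8 for the closest pair. The part of the lower detection in replicate 3 in any value below was not tested, and the values of all 3 libraries are therefore given one by one.

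At least 1 count in any library was found for 18204 genes, and 14679 genes had none. Of the 22237 nuclear protein-coding genes, 16602 had a count and 5635 had none. The mean levels of genes with a count ran from 0.00872 to 48882 CPM, the lowest of them below the level of 3 counts. There were 13596 genes with a mean of at least 1 CPM, 9766 with at least 10, 1909 with at least 100, 72 with at least 1000 and 4 with at least 10000 CPM, and the median of the genes with a count was 12.8 CPM. The 10 genes with the most reads took 15.02%, 14.9% and 16.4% of the counts of replicates 1, 2 and 3, and the first 100 genes took 30.5%, 30.4% and 31.5%. Protein-coding genes made up 94.4%, 94.6% and 93.6% of the counts. The plot of rank against level shows where the members of the main marker lists fall along this distribution.

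**Figure D1:**
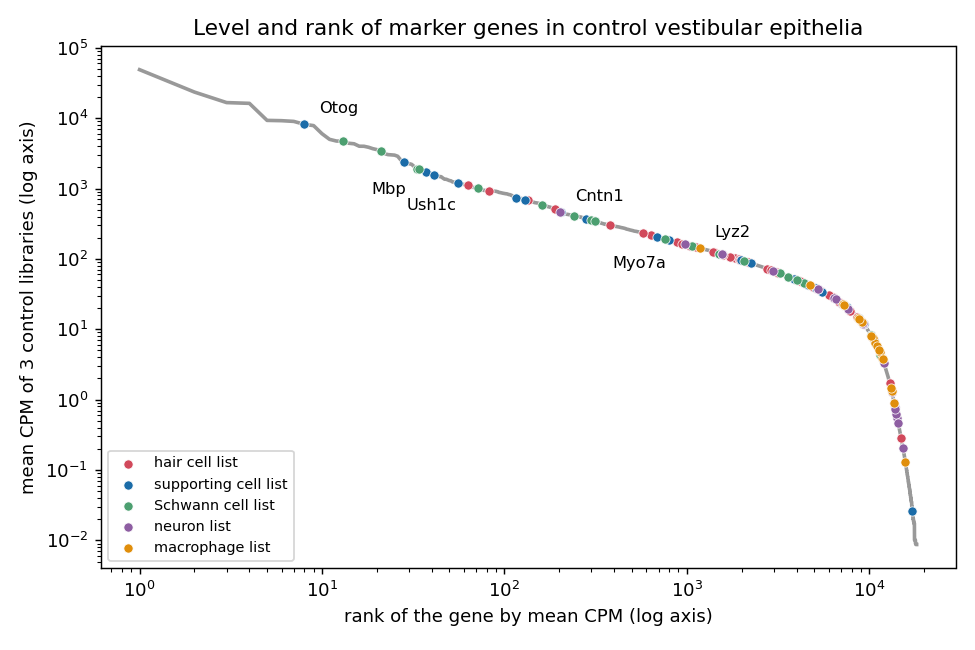
Mean CPM of the 3 control libraries (vertical, log axis) against the rank of each gene (horizontal, log axis). The grey line is every gene with a count and the points are members of 5 marker lists. The supporting cell gene Otog lies at rank 8 and the Schwann cell gene Mbp at rank 33, and the macrophage list begins with Lyz2 at rank 1177.

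The highest read share of any gene belonged to a mitochondrial ribosomal RNA, AY172581.24, with 45446, 43442 and 57759 CPM in replicates 1, 2 and 3. Next came secreted carriers and matrix proteins. Apoe, the lipid carrier apolipoprotein E, had 22381, 21447 and 26610 CPM. Coch encodes cochlin, a matrix protein made by inner ear fibrocytes, and it had 16345, 16965 and 16637 CPM, a coefficient of variation (CV) of 1.86%. Ptgds, a synthase of prostaglandin D2, had 17677, 12496 and 18538 CPM (CV 20.1%), with the low value in replicate 2. Apod, another lipid carrier, had 8978, 7817 and 10198 CPM. Otog encodes otogelin, a component of the otolithic membrane and cupula, and its values of 8091, 8259 and 8208 CPM gave a CV of 1.05%, the lowest of the 30 nuclear protein-coding genes with the highest CPM. Among those genes, then, Coch and Otog were close to equal in the 3 rats, whereas Ptgds was not.

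The list of 30 continued with Spp1, which encodes osteopontin and marks HCI (5000, 4644 and 5361 CPM) and with the unnamed gene AABR07000398.1 (5394, 5231 and 3568 CPM). Others were the translation factor Eef1a1, the cytoskeletal Actb, Itm2b, the fatty acid desaturase Scd2, the calcium-binding S100b, the ubiquitin ligase subunit Fbxo2, Hhatl, the chaperone Hsp90ab1, the ferritin heavy chain Fth1, clusterin (Clu), the matrix protein Sparcl1, App, Skp1 and Plekhb1. The last 8 were the myelin genes Mbp and Pmp22, the endoplasmic reticulum (ER) chaperones Hspa5 and Hsp90b1, the connexin Gjb6, the chaperone Hspa8, the actin-severing Gsn and Otoa, which encodes the otoancorin that anchors the gels to the cells beneath. Myelin, supporting cell, matrix and protein-folding genes thus all reached this tier. The 30 genes took 14.5%, 13.9% and 14.7% of the counts. Their median CV was 9.04%, and 18 of them had a CV under 10%, beside 39.0% of all genes at 10 CPM or more. Over the 72 genes at 1000 CPM or more, these included, the median CV was 7.80%. Leaving out any library in turn kept at least 29 of the 30.

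**Figure D2:**
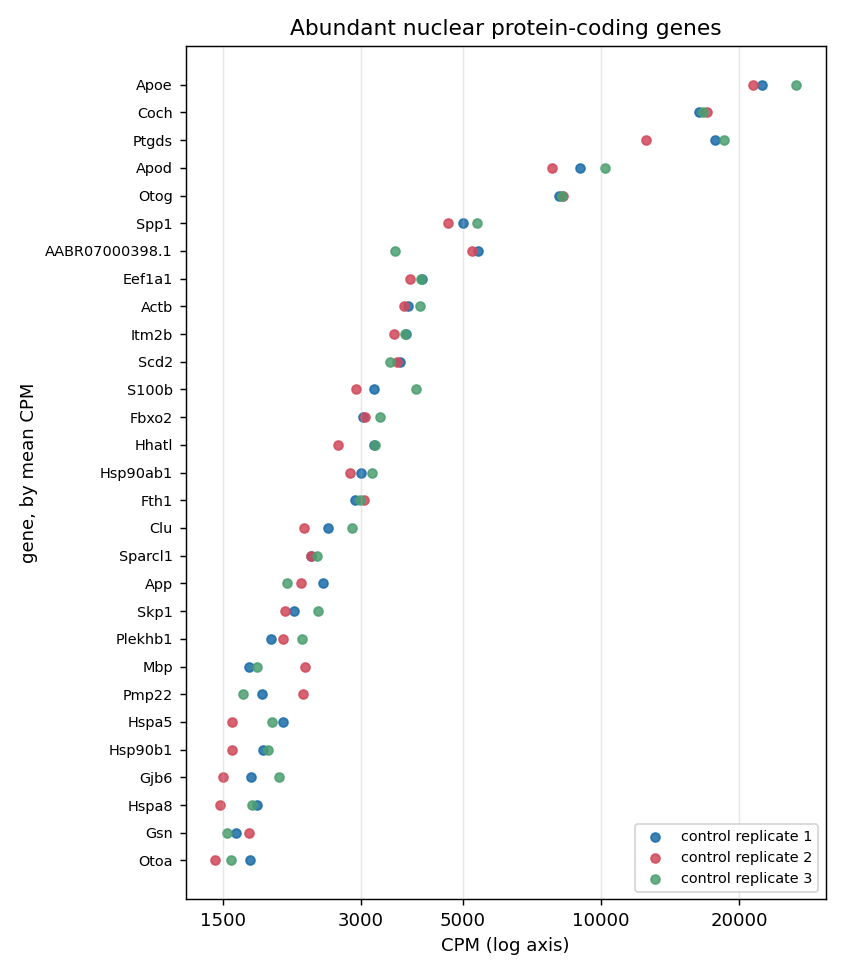
CPM (horizontal, log axis) of 29 of the 30 nuclear protein-coding genes with the highest mean, from Apoe down to Otoa, with 1 point for each control library. The points of Coch, Otog and Sparcl1 coincide, while replicate 2 lies apart for Ptgds and for the myelin genes Mbp and Pmp22.

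Another 30 nuclear protein-coding genes lay above 1000 CPM, with a median CV of 6.35%. Ranked from 1553 to 1003 CPM, they included Cst3, Aif1l, LOC680121, Cnmd, Cd9, Sparc, Atp5f1b, Isyna1, Ddx5, Col11a2, LOC100911991, Psap, Cd164, Sod3, Gjb2, Anxa5, Tuba1a, Ctsb, Pdia3, Lrp2, Zbtb20, Ush1c, Padi2, Actn4, Spint2, Ptn, Tuba1b, Cfb and Fam107a. Most differed little between the rats, such as the tetraspanin gene Cd9 with 1395, 1399 and 1430 CPM. The widest spread was that of Lrp2, which encodes the endocytic receptor megalin, with 1275, 846 and 1294 CPM (CV 22.3%). Ush1c, the only gene of the HC list in this tier, is described next.

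Genes of the HCs were found from 0.284 to 1118 CPM. Of 52 listed HC genes, 51 were in the table and all of these had counts, 46 with at least 10 CPM, 3 between 1 and 10 CPM and 2 below 1 CPM. Tomt was not analysed here. The median of the list was 51.3 CPM, beside 12.8 CPM over all genes with a count, and 44 of the 51 lay above that second value. Over the nuclear protein-coding genes with a count, the set of like type, the median was 16.1 CPM. The reads of the list summed to 6430, 7030 and 6352 CPM in replicates 1, 2 and 3. Each library showed the defining HC genes: Myo7a, the unconventional myosin of the stereocilia, had 161, 187 and 167 CPM, and Pou4f3, the transcription factor required for HC survival, had 131, 147 and 162 CPM.

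The 24 genes for the structure of the hair bundle had a median of 61.9 CPM and ran from 0.284 to 1118 CPM. Ush1c, which encodes the scaffold harmonin of the tip links, had 1135, 1146 and 1072 CPM, and Ptprq, a receptor phosphatase of the bundle base, had 898, 1120 and 759 CPM. Myo6, a myosin that anchors the bundle in the cuticular plate, had 506, 508 and 530 CPM. The actin bundler Espn had 145, 171 and 178 CPM, Xirp2, another actin-binding protein of the stereocilia, had 175, 155 and 131 CPM, and Eps8l2 had 128, 128 and 122 CPM. Of the 24 genes, 22 had at least 10 CPM. Those under it were Ush1g, with 0.209, 0.454 and 0.189 CPM, and Kncn, with 1.07, 1.03 and 0.595 CPM. Of the 22, replicate 2 was highest for 13 and replicate 3 for 6, beside 29.4% and 42.2% of all genes at 10 CPM or more.

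For mechanotransduction, which converts bundle deflection into current, 7 of 8 genes had at least 10 CPM. Tmc1, a pore subunit of the channel, had 35.6, 37.6 and 46.7 CPM, and Tmc2, its paralogue, had 18.1, 19.7 and 7.74 CPM. The calcium-binding Cib3 had 95.7, 47.8 and 155 CPM, a CV of 54.1% that was the highest of the HC list among members at 10 CPM or more, while Cib2 had 39.3, 44.3 and 49.4 CPM. The accessory subunits Lhfpl5 (83.9, 80.3 and 94.9 CPM) and Tmie (21.1, 22.2 and 25.1 CPM) varied less. The tip link cadherins were Cdh23, with 20.9, 28.6 and 35.8 CPM, and Pcdh15, with 5.29, 8.90 and 10.9 CPM. Replicate 3 was highest for 6 of the 7 genes at 10 CPM or more, and over all 9766 genes at that level it was highest for 42.2%. In the whole HC list it was highest for 16 of 46, or 11 with scaling by library totals alone, beside 35.1% of all genes. The grouping of HC genes by role was chosen after values were seen.

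The afferent and efferent synapse was represented by 7 genes, all above 10 CPM. Otof, the otoferlin that senses calcium for vesicle release, had 694, 746 and 598 CPM, and Cabp2, a modulator of the release channel, had 208, 236 and 210 CPM. The channel gene Cacna1d had 99.9, 125 and 84.2 CPM, and Slc17a8, the vesicular glutamate transporter of HCs, had 67.4, 61.3 and 65.8 CPM. The nicotinic subunits through which efferent fibres act on HCs were Chrna10, with 176, 285 and 248 CPM, and Chrna9, with 53.9, 55.4 and 35.5 CPM. Replicate 2 was highest for 6 of the 7, and over all genes at 10 CPM or more it was highest for 29.4%. In the whole HC list it was highest for 25 of 46, and this group too was chosen after values were seen.

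Among ion and calcium handling genes, the potassium channel Kcna10 had 292, 283 and 322 CPM, the calcium pump Atp2b2 had 126, 145 and 109 CPM and oncomodulin (Ocm, listed in the table as Ocm2) had 65.7, 80.7 and 61.7 CPM. Calb2, which encodes calretinin, had 18.4, 19.1 and 17.7 CPM, and Calb1 had 1.86, 1.21 and 2.03 CPM. The transcription factors besides Pou4f3 were Gfi1, with 27.2, 26.7 and 52.0 CPM, Lhx3, with 25.2, 24.4 and 34.1 CPM, and Atoh1, the factor that initiates HC fate in development, with 8.82, 6.48 and 7.98 CPM. Bdnf, a neurotrophin made by HCs, had 114, 120 and 108 CPM. Kcna10, Pou4f3, Gfi1 and Lhx3 were highest in replicate 3, whereas Atp2b2, Ocm, Calb2 and Bdnf were highest in replicate 2.

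All 8 genes of the HCI list exceeded 10 CPM. After Spp1 came Adam11, with 615, 790 and 578 CPM, and Vsig10l2, listed as AC132671.2, with 413, 459 and 353 CPM. The Notch-related Dner, which HCII also express, had 372, 373 and 357 CPM, and the potassium channel subunit Kcnab1 had 112, 118 and 105 CPM. Bmp2 had 38.6, 38.7 and 47.5 CPM, and Atp2b2 and Ocm also stand on this list. Replicate 2 was highest for 6 of the 8 and replicate 3 lowest for 6, beside 29.4% and 39.5% of all genes at 10 CPM or more. The 4 genes of the HCII list were Anxa4, with 344, 314 and 324 CPM, Calb2, the microtubule-binding Mapt, with 18.5, 16.9 and 10.6 CPM, and Sox2, with 10.3, 13.1 and 11.9 CPM. Calb2 and Sox2 are also used by other cells of the epithelium, so this list does not separate HCII from them.

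**Figure D3:**
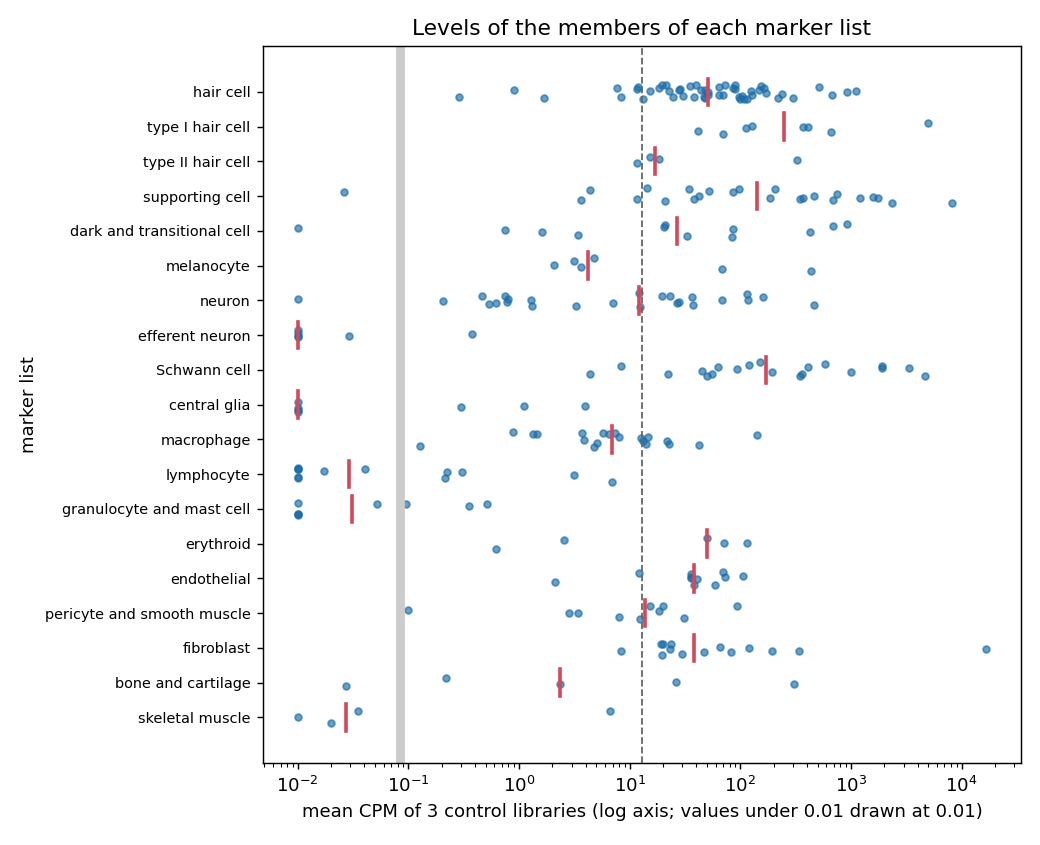
Mean CPM of the 3 control libraries (horizontal, log axis) for the members of 19 marker lists, with 1 point for each gene and a red bar at each list median. The grey band is the level of 3 counts, 0.0785 to 0.0908 CPM, and the dashed line is the median of all genes with a count, 12.8 CPM. The efferent neuron, central glia, lymphocyte, granulocyte and skeletal muscle lists lie left of the dashed line in full.

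Supporting cell genes took the largest summed share of reads of the epithelial lists, with 18588, 18204 and 18612 CPM over 24 genes, 21 of them at 10 CPM or more, and a median of 141 CPM. Sox2 also stands on the HCII list, and other members may be expressed outside supporting cells. The sum is therefore not a measure of the share of those cells. Much of the sum was Otog. Other genes of the gels were its relative Otogl, with 483, 446 and 457 CPM, and the tectorins Tectb (362, 382 and 299 CPM) and Tecta (244, 198 and 179 CPM). Otoa had 1723, 1442 and 1562 CPM. The otoconia genes Otol1 (6.88, 3.69 and 2.65 CPM) and Oc90 (3.98, 2.21 and 4.63 CPM) were low. Otoconia are known to form mainly in development, and whether this bears on these values was not tested. The connexin genes of the gap junctions, Gjb6 (1730, 1504 and 1987 CPM) and Gjb2 (1217, 1236 and 1132 CPM), were both above 1000 CPM in each rat.

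Sparcl1 had 2335, 2340 and 2406 CPM, and the glutamate transporter Slc1a3, which clears transmitter around the HCs, had 773, 650 and 802 CPM. Kremen1, a receptor that modulates Wnt signalling, had 644, 668 and 758 CPM. Genes of the Notch pathway, which patterns HCs and supporting cells, were present: Notch1 had 160, 186 and 209 CPM, its ligand Jag1 109, 127 and 55.2 CPM, Lfng 20.1, 22.4 and 19.6 CPM and the target Hes1 32.8, 32.8 and 37.1 CPM. Hes5, another target and a marker of developing supporting cells, did not exceed 3 counts in any library. The transcription factors Sox9 (398, 445 and 268 CPM) and Prox1 (46.3, 47.2 and 21.8 CPM), like Jag1, were lowest in replicate 3. Over the 21 members at 10 CPM or more, replicates 1, 2 and 3 were highest for 4, 10 and 7 and lowest for 7, 6 and 8, beside highest shares of 28.5%, 29.4% and 42.2% and lowest shares of 27.2%, 33.3% and 39.5% over all genes. With scaling by library totals alone, replicate 3 was lowest for 12 of the 21, beside 46.8% of all genes.

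Dark and transitional cells were represented by 12 genes, of which 8 had at least 10 CPM. Atp1b2, a subunit of the sodium pump, had 534, 400 and 336 CPM. Slc12a2, the cotransporter that loads dark cells with potassium, had 747, 672 and 646 CPM. The secretory channel Kcnq1 had 94.3, 53.4 and 103 CPM and its subunit Kcne1 25.5, 14.7 and 22.1 CPM, while Bsnd, a subunit of chloride channels, had 24.1, 16.2 and 21.1 CPM. Slc26a4, which encodes the anion exchanger pendrin of transitional cells, had 99.4, 95.9 and 60.0 CPM. Replicate 2 was highest for none of the 8 and lowest for 5, beside 29.4% and 33.3% of all genes at 10 CPM or more. With scaling by library totals alone it was highest for none and lowest for 4, beside 36.4% and 26.3%. Foxi1 had no counts in any library. Of the melanocyte genes, which mark pigment cells under the dark cells, Pmel had 433, 451 and 419 CPM and Mitf 62.8, 65.1 and 76.1 CPM. The pigment enzyme genes Tyr and Tyrp1, with Mlana and Slc45a2, lay between 2.08 and 4.76 CPM on average, and Dct was not analysed here.

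The neuron list was split between measured and nearly absent genes. Of 25 genes, 13 had at least 10 CPM, 4 lay between 1 and 10 CPM and 8 below 1 CPM, with a median of 12.0 CPM and summed levels of 1129, 1178 and 1103 CPM. The highest were the adhesion gene Cntn1 (459, 443 and 487 CPM), the neurotrophin receptors Ntrk2 (159, 152 and 170 CPM) and Ntrk3 (72.8, 72.4 and 58.4 CPM), Map1b (122, 142 and 86.4 CPM), Isl1 (106, 129 and 113 CPM) and Snap25 (31.9, 37.3 and 42.6 CPM). These genes are not restricted to neurons. Ntrk2, for example, is also transcribed in non-neuronal cells, and Snap25 serves transmitter release in HCs. Neurofilament genes, which are more specific to axons, were Nefl (38.3, 41.0 and 31.4 CPM), Nefm (27.4, 31.1 and 24.5 CPM) and Nefh (0.105, 0.242 and 0.271 CPM). Slc17a7, the vesicular glutamate transporter of many ganglion neurons, had no counts in any library, and Slc17a6 had 0.0785, 1.3 and 0 CPM. Stmn2, Elavl3, Elavl4, Thy1 and Prph had means under 1 CPM, while Uchl1, Gap43, Rbfox3 and Tubb3, also genes of many neurons, had means of 12.4, 12.0, 7.01 and 3.29 CPM.

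Efferent neurons, whose cell bodies lie in the brainstem, left almost no reads. The cholinergic genes Chat, Slc18a3 and Slc5a7 and the receptor gene Ret had 0 counts in all 3 libraries, Calca did not exceed 3 counts, and Calcb had 0.340, 0.787 and 0 CPM. A count of 0 allows a level of up to 0.0785, 0.0908 and 0.0812 CPM in the 3 libraries. Calcb alone of these 6 genes exceeded 3 counts, in replicates 1 and 2.

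Of the glial, neuronal and immune lists, the Schwann cell list took the largest summed share of reads. Its 20 genes in the table, of 21 listed, summed to 14365, 16723 and 15122 CPM, with a median of 172 CPM, and 18 had at least 10 CPM. The compact myelin genes included Mbp (1714, 2263 and 1785 CPM) and Pmp22 (1829, 2248 and 1658 CPM). S100b, which supporting cells and HCs can also express, had 3200, 2929 and 3963 CPM, and Cnp had 549, 651 and 558 CPM. Prx, which encodes periaxin of myelinating Schwann cells, had 392, 516 and 328 CPM and its partner Drp2 361, 413 and 305 CPM. Egr2, the transcription factor of peripheral myelination, had 82.5, 96.6 and 99.5 CPM.

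Most Schwann cell genes were highest in the same library, but the order of the other 2 libraries varied. Mbp was lowest in replicate 1 and Pmp22 in replicate 3. Replicate 2 was highest for 15 of the 18 Schwann cell genes at 10 CPM or more, beside 29.4% of all genes, and for 16 with scaling by library totals alone, beside 36.4% of all genes. Relative to the mean of the other 2 libraries on the log2(CPM + 0.5) scale, replicate 2 lay 0.29 higher in the median of these genes. The exceptions were S100b, Egr2 and Sox10, all highest in replicate 3. Sox10, the transcription factor of neural crest glia, had 71.7, 89.4 and 197 CPM, and among the 18 genes it alone had a range above 2-fold. In the HC list replicate 2 was highest for 25 of 46 genes, or 30 with scaling by library totals alone, and in the neuron list for 7 of 13 or 8, beside the same shares of all genes. The part of the dissection, of the number of cells and of the library in these counts was not tested.

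Central glia were not detected at more than trace levels. Of 7 genes of oligodendrocytes and astrocytes, the oligodendrocyte genes Olig1, Olig2, Mobp and Opalin had 0 counts in all 3 libraries and Mog had 0.419, 0.484 and 0 CPM. Gfap, an astrocyte gene that non-myelinating Schwann cells can also use, had 5.57, 1.09 and 5.09 CPM, and Slc1a2 had 1.20, 1.18 and 0.920 CPM. Mbp is used by both kinds of myelinating glia.

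Immune cells contributed few reads. The 20 macrophage genes in the table, of 21 listed, summed to 330, 266 and 400 CPM, with a median of 6.94 CPM, and 8 of them had at least 10 CPM. The lysozyme gene Lyz2 had 122, 119 and 184 CPM, the receptor gene Csf1r 41.2, 25.4 and 60.1 CPM, Laptm5 20.3, 22.6 and 25.5 CPM and the class II invariant chain Cd74 16.2, 18.7 and 30.7 CPM. Mrc1, a mannose receptor of resident macrophages, had 20.9, 6.60 and 16.3 CPM, and Cd14 had 18.7, 11.4 and 11.9 CPM. The complement genes C1qa, C1qb and C1qc had means of 7.43, 13.2 and 12.6 CPM. Replicate 2 was lowest for 6 of the 8 genes at 10 CPM or more and highest for none, beside 33.3% and 29.4% of all genes. With scaling by library totals alone it was lowest for 5, beside 26.3% of all genes. Cd163, another receptor of resident macrophages, had 9.29, 1.85 and 0.108 CPM, and the microglial gene P2ry12 had 0.0523, 0.333 and 0 CPM.

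Lymphocytes and granulocytes were close to the limit of detection. Of 12 lymphocyte genes, Cd4, which rat macrophages also express, had 7.25, 6.81 and 6.63 CPM and Cd3g had 3.43, 2.91 and 3.03 CPM. The remaining genes had means below 1 CPM, led by Nkg7, Cd8a, Cd79b and Cd3e. Cd2 did not exceed 3 counts, and Cd3d, Ms4a1, Gzmb and Cd79a (listed as Cd79al) had no counts. None of the 8 granulocyte and mast cell genes reached a mean of 1 CPM. Csf3r, S100a9, S100a8 and Mpo had counts above the floor in at least 1 library, Tpsab1 did not exceed 3 counts, and Elane, Cpa3 and Ms4a2 had none.

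Vessels and stroma were present in every library. Of 11 endothelial genes 10 had at least 10 CPM, led by the tight junction gene Cldn5 (97.3, 105 and 114 CPM), the growth factor receptors Kdr (69.6, 68.1 and 81.4 CPM) and Flt1 (64.1, 69.4 and 75.4 CPM), Tie1 (55.3, 53.3 and 69.5 CPM), Vwf (43.8, 43.7 and 35.4 CPM) and Emcn (33.4, 38.4 and 42.1 CPM). Pecam1 was not analysed here. Pericyte genes were led by Pdgfrb (79.9, 107 and 94.9 CPM), Cspg4 (25.2, 41.8 and 26.6 CPM), Notch3, Abcc9, Rgs5 and Kcnj8. All 6 pericyte genes at 10 CPM or more were lowest in replicate 1 and 5 were highest in replicate 2, beside 27.2% and 29.4% of all genes. The counts were the same under each of the 4 scalings. With library totals alone the shares of all genes were 26.9% and 36.4%. Acta2, the actin of smooth muscle, had 0.209, 0.0606 and 0.0271 CPM, values at or near the floor of 3 counts.

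The fibroblast list was led by Coch, which made up most of its sum of 17319, 17949 and 17654 CPM. Its other leading genes were Pdgfra (378, 318 and 329 CPM), the proteoglycan genes Dcn (197, 217 and 163 CPM) and Fmod (87.0, 113 and 160 CPM), and Tbx18 (68.6, 80.9 and 95.3 CPM) and Col3a1 (65.5, 71.2 and 60.9 CPM). Pou3f4, a transcription factor of otic mesenchyme, had 45.9, 47.2 and 48.0 CPM. Genes of nearby bone were low: Bglap did not exceed 3 counts, and Ibsp and Sp7 had means of 0.219 and 2.35 CPM. Col2a1, which inner ear matrix shares with cartilage, had 283, 338 and 305 CPM and Acan 27.8, 32.6 and 18.2 CPM.

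Of the 4 skeletal muscle genes, the myosin Myh4 had 15.9, 3.15 and 0.731 CPM. Tnnt3, Ckm and Acta1 had no more than 0.105 CPM in any library, so Myh4 alone does not show muscle tissue in the samples. Blood was measured through Hba-a2, of which 2 entries had 116, 131 and 94.5 CPM and 51.4, 55.9 and 43.8 CPM, and Hbb, with 64.7, 75.4 and 73.9 CPM. The red cell genes Alas2 and Slc4a1 had means of 2.56 and 0.619 CPM. Near-identical globin genes share reads, so the split between the Hba-a2 entries is uncertain. The Y-linked genes Eif2s3y (74.9, 68.5 and 61.9 CPM) and Kdm5d (35.8, 32.0 and 52.1 CPM) were measured in each library, which matches the label male, while Ddx3y and Usp9y had no counts.

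Proliferation genes were low apart from the replication clamp Pcna (36.6, 39.6 and 48.4 CPM): Mki67 had 4.06, 3.33 and 3.17 CPM, Ccnb1 and Cdk1 had means of 2.77 and 2.51 CPM, and Bub1, Ccna2, Top2a and Aurkb were below 1 CPM. Immediate early genes, which dissection can induce, were led by Btg2 (135, 144 and 149 CPM), Nr4a1 (71.8, 62.2 and 82.6 CPM), Jun (56.1, 63.8 and 57.7 CPM), Dusp1, Egr1 and Zfp36. Fos had 5.18, 6.99 and 3.36 CPM and Fosb 0.131, 0.242 and 0 CPM, and the stress factor Atf3 had 3.77, 5.75 and 6.33 CPM. The housekeeping genes Eef1a1, Actb, Rplp0, B2m and Ppib each had a range below 2-fold. The members at 10 CPM or more had a median CV of 4.17%, the lowest of the marker lists, while Hprt1, below that level, had 3.24, 3.48 and 0.947 CPM.

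Genes of the circadian clock were all measured, and the members at 10 CPM or more had a median CV of 18.9%, above that of the housekeeping genes. The lists were not of like level, with medians of 61.9 CPM for the clock and 571 CPM for the housekeeping list. Over all genes the median CV was 11.4% between 30 and 100 CPM and 7.34% between 300 and 1000 CPM. Nr1d1 had 195, 181 and 169 CPM, Nr1d2 161, 145 and 207 CPM, Per3 129, 129 and 109 CPM, Tef 100, 80.1 and 120 CPM, Dbp 68.5, 57.7 and 130 CPM and Clock 73.6, 71.3 and 67.7 CPM. Dbp and Per2 (72.3, 52.0 and 34.8 CPM) were the members with a range above 2-fold, and they ranked the rats in different orders. Replicate 2 was lowest for 6 of the 11 clock genes at 10 CPM or more, beside 33.3% of all genes. The time of day of each dissection was not given in the sources used here.

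The mitochondrial genome supplied 4.71%, 5.48% and 4.74% of the counts through its 13 protein-coding genes. Mt-co1, a subunit of cytochrome oxidase, had 8608, 10276 and 9017 CPM, Mt-atp6 8692, 9930 and 9007 CPM, Mt-nd1 7417, 8323 and 7761 CPM and Mt-cyb 5795, 6670 and 5583 CPM. Replicate 2 was highest for 12 of the 13, beside 29.4% of all genes, and for all 13 with scaling by library totals alone, beside 36.4%. The mitochondrial ribosomal RNAs behaved otherwise, with 4.63%, 4.51% and 5.69% of the counts and the highest share in replicate 3. Genes for cytosolic ribosomal proteins, 90 in the table, took 1.34%, 1.34% and 1.31% of the counts. Long intergenic non-coding RNAs took 0.467%, 0.360% and 0.230%, and most of that was AC134224.3, with 3405, 2123 and 1256 CPM, which was the non-coding nuclear gene with the most reads.

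The spread between the 3 rats depended on level. Over the 9766 genes with at least 10 CPM, the median CV was 12.3%, and 80% of the genes lay between 4.23% and 29.9%. By level, the median CV was 31.0% between 1 and 10 CPM, 16.8% between 10 and 30, 11.4% between 30 and 100, 8.60% between 100 and 300, 7.34% between 300 and 1000 and 7.80% above 1000 CPM. Counting error alone gave medians from 8.28% in the lowest of these classes to 0.398% in the highest, and it leaves out the error of PCR. The biological coefficient of variation of edgeR, which is the spread beyond counting error, was 0.258 over 13797 genes. Without replicate 3 it was 0.157, while without replicate 1 or 2 it was 0.302 and 0.292.

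**Figure D4:**
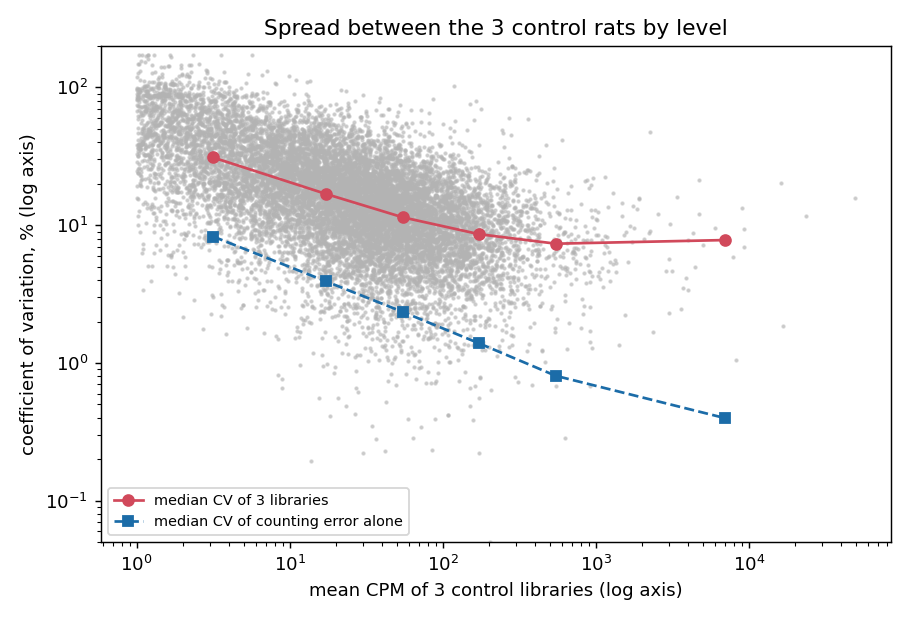
Coefficient of variation over the 3 control libraries (vertical, log axis, %) against mean CPM (horizontal, log axis), with 1 grey point for each gene at 1 CPM or more. The red line is the median in each class of level, from 31.0% to 7.80%, and the blue dashed line is what counting error alone gives, from 8.28% to 0.398%.

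A range above 2-fold between the highest and the lowest rat was found for 573 of the 9766 genes, or 5.87%, and a range above 4-fold for 30. Replicate 3 was far from the others most often. It lay more than 2-fold above the mean of the other 2 libraries for 180 genes and below it for 188, against 30 and 29 for replicate 1 and 36 and 40 for replicate 2. Of the 1909 genes with at least 100 CPM, 22 had a range above 2-fold, and replicate 3 was the farthest from the others in 20 of them. Mindy2, a deubiquitinase gene, had 51.5, 47.1 and 259 CPM, Ptov1 had 83.1, 93.2 and 316 CPM, and Plbd2 had 84.7, 82.9 and 282 CPM. Igfbp7, a binding protein of insulin-like growth factors, had 182, 174 and 462 CPM. Such ranges were found for 2 of 46 genes at 10 CPM or more in the HC list, 2 of 21 in the supporting cell list, 1 of 18 in the Schwann cell list, 3 of 8 in the macrophage list (Csf1r, Mrc1 and C1qb) and 2 of 11 in the clock list, beside the 5.87% of all genes.

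The 15 widest ranges were of several kinds. LOC100910143 (43.0, 0 and 26.7 CPM), LOC100911615 (0, 23.3 and 41.5 CPM), Sccpdh (0.131, 50.4 and 39.6 CPM), Pigg (0, 29.7 and 10.7 CPM), Cpne1 (24.4, 0 and 8.39 CPM) and LOC100911516 (13.6, 0 and 18.5 CPM) were at or near 0 in a single library and well measured in the others. For LOC100911516, the sum with a second entry of the same symbol was 201, 196 and 183 CPM. The division of reads between these entries was not tested. Foxk1 (25.4, 32.0 and 3.03 CPM), Gusb (27.3, 31.5 and 4.22 CPM), Moap1, AABR07061378.1, Cmtr2 and the pseudogene LOC100911830 were lowest in replicate 3, and Habp4 (4.00, 5.51 and 29.7 CPM) was highest there. Zbtb16, a transcriptional repressor, had 68.6, 4.03 and 44.1 CPM, and Cyp1a1, which the aryl hydrocarbon receptor induces, had 35.1, 8.63 and 51.1 CPM, both lowest in replicate 2.

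Further genes in which a library lay far from the mean of the other 2 were of moderate level. In replicate 1, LOC108348080, Cacna1c, Cndp1 and LOC108348083 were high and Tor1aip2, Daw1, B3gnt2, Rbm41, Grm3 and Slc25a38 low. In replicate 2, AABR07066510.1 and Tor1aip2 were high and Dock8, Slpi, Epb41l1 and Trpm6 low. For Cacna1c, LOC108348083, Grm3, Slc25a38, AABR07066510.1 and Slpi, replicate 3 lay still farther from the mean of the other 2. In replicate 3, Foxo1, Id4 (43.1, 48.2 and 169 CPM) and Slpi were high and Nfxl1, Zscan20, LOC103694491 and Fhdc1 low. At the other end, the 10 narrowest ranges were those of Slc9a3r2 (203, 203 and 203 CPM), Mab21l1, Polr3a, Ppme1, Spg21, Rbm4b, Paip1, Mrpl54, Sqstm1 (626, 622 and 624 CPM) and Zfp277. With 9766 genes and 3 libraries some ranges are narrow by chance, so these genes are named as the extreme of the distribution and not as stable references.

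**Figure D5:**
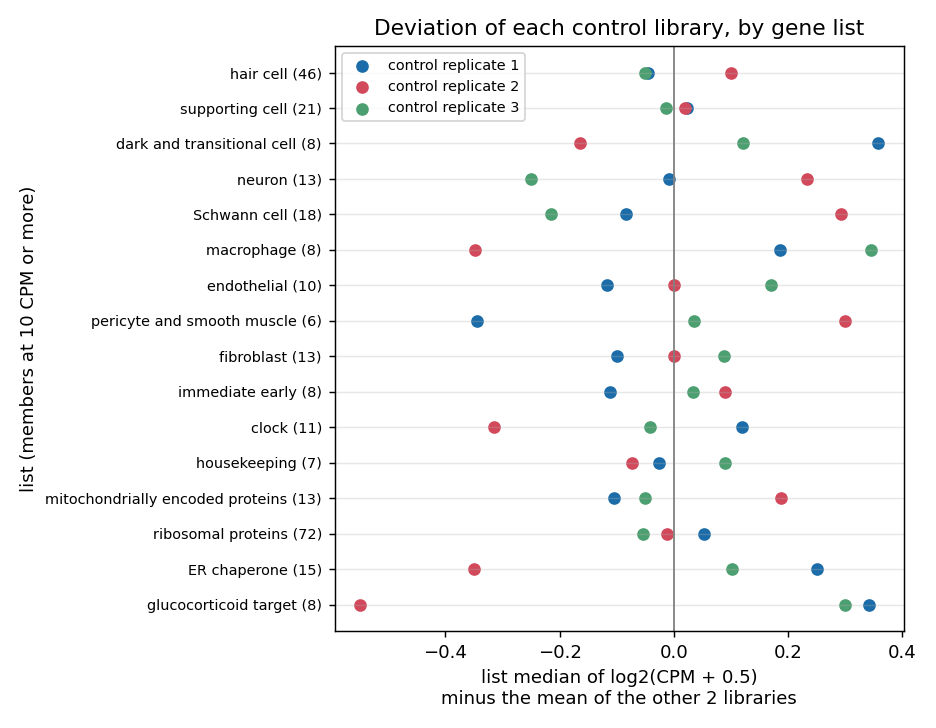
Median over the members at 10 CPM or more (their number in brackets) of each library's deviation from the mean of the other 2 libraries, on the log2(CPM + 0.5) scale, for 16 gene lists. Replicate 2 lies at 0.29 for the Schwann cell list and at -0.35 for the macrophage list, and the supporting cell list stays between -0.01 and 0.02 for all 3 libraries.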

How the data were processed

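The authors mapped reads with STAR 2.5.3a and estimated counts per gene with RSEM (version 1.3.0 in the submitters' processing notes) against rat genome Rnor6.0. The deposited values are these expected counts, as whole numbers without normalization. The libraries were made by SMARTseq2 from 6 to 11 ng of RNA, with 8 cycles of cDNA and 12 cycles of library PCR. RSEM divides reads that fit several genes, and since 4258 entries have a symbol that is used more than once, identifiers were used to follow genes. The strand setting was not given in the sources used here, so overlapping antisense genes are uncertain. Replicates are separate rats.

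The 3 control libraries were scaled together by TMM in edgeR 4.0.16 (R 4.3.3, limma 3.58.1). Ranges and deviations used log2(CPM + 0.5). The biological coefficient of variation came from estimateDisp with an intercept only, after filterByExpr. It was also run on simulated data with the same dispersion for all genes. That check does not cover a spread that changes with level or a library that stands apart, as found here. Detection was compared at equal depth by exact hypergeometric thinning. No test between groups was made.

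Genes named are the 30 nuclear protein-coding genes with the highest mean CPM, the 6 highest members of each marker list and members at or under 3 counts, the 15 widest and 10 narrowest ranges at 10 CPM or more, and the 10 genes in which each library lay farthest above and below the others. Members and lists were chosen with earlier results of these data known. The next 30 coding genes, the genes at 100 CPM or more with a range above 2-fold, the roles of HC genes, the glucocorticoid target and ER chaperone lists and the gene families were chosen after values were seen, as were other names outside the rule. Alternatives were relative log expression (RLE) size factors, library totals alone, no mitochondrial genes, other filters, DESeq2 1.42.0 dispersions and each replicate left out. Foxd3, Itgam, Hba-a1, Hbb-b1, Uty and Gapdh were not analysed here, and no gene positions were used. Some genes that meet the rule for names are not reported here. The 6 treated libraries were left out.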

Additional observations from a re-analysis of the deposited data

How the results depend on the processing

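The scaling changed the list medians little, but it changed how often each library was highest or lowest. With library totals alone, replicate 3 was highest for 35.1% and lowest for 46.8% of all genes at 10 CPM or more. Under TMM these shares were 42.2% and 39.5%. The counts for the roles of HC genes were made under TMM only. RLE size factors and library totals alone moved no list median by more than the spread between the 3 rats, whereas leaving mitochondrial genes out of the totals raised the medians of the HC list to 57.0 and of the supporting cell list to 157 CPM and gave a share of 24.2% for the first 100 genes. With only list members at 10 or more counts in every library, the medians were 57.5 CPM for the HC, 185 for the supporting cell, 24.9 for the neuron and 8.02 for the macrophage list, since low members were dropped. The biological coefficient of variation was 0.402 without a filter on low counts, and the DESeq2 median of gene-wise dispersions gave 0.147. With at least 5 counts required, 15366 genes were detected at equal depth. Leaving out each replicate in turn gave 49.3 to 55.7 CPM for the HC list, 135 to 148 for the supporting cell, 11.2 to 12.4 for the neuron, 160 to 180 for the Schwann cell and 6.53 to 7.30 for the macrophage list. It gave 0.157 to 0.302 for the biological coefficient of variation, the lowest without replicate 3, 16256 to 17085 detected genes and a share of 30.4% to 31.0% for the first 100 genes. For single genes and the other lists, 45 of 325 values under these alternatives moved by more than the spread between the rats. No paired analysis was possible because there was a single group without a test, and replicate numbers were assigned here. Genes under the level of 3 counts cannot be ranked at this depth.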

Other observations

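Gene families picked by symbol after the values were seen add to the account of the tissue. Of 92 potassium channel genes, 14 had at least 10 CPM. Over all 22237 nuclear protein-coding genes, 9651 reached that level, and each family count below stands beside this. Kcnj16, an inward rectifier subunit, led them with 289, 309 and 353 CPM in replicates 1, 2 and 3, followed by Kcna10 and by the axonal subunits Kcna2 (118, 171 and 111 CPM) and Kcna1 (102, 119 and 120 CPM). Claudins, which seal the epithelium that separates endolymph from perilymph, had 13 of 28 genes at that level. Cldn9 had 590, 580 and 635 CPM and Cldn8 295, 279 and 315 CPM, both with points close together in the 3 rats. Collagens reached 29 of 44 genes, led by Col11a2 (1200, 1536 and 1119 CPM), Col9a1 (899, 1188 and 777 CPM) and Col9a2 (913, 984 and 915 CPM). These are fibrillar and fibril-associated collagens of the inner ear gels and of cartilage, and each was highest in replicate 2. So were 15 of the 29, beside 29.4% of all genes at 10 CPM or more. Of 19 connexins, Gjb6 and Gjb2 were followed by Gja1 (42.6, 51.6 and 34.0 CPM) and by Gjb1 (31.0, 36.1 and 30.7 CPM), a connexin of Schwann cells. Of 7 transmembrane channel-like genes, Tmc4 (58.6, 54.4 and 96.1 CPM) was measured beside Tmc1 and Tmc2. Of 11 aquaporins, Aqp4, a water channel of supporting cells, had 59.1, 48.2 and 50.1 CPM and was the only member at 10 CPM or more.

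Replicate 2 had the lowest value for further sets of genes that were drawn up after their values were seen. All 15 ER chaperone and folding genes were lowest there under each of the 4 scalings. Of all genes at 10 CPM or more, 33.3% were lowest in replicate 2, or 26.3% with library totals alone. The 15 included Hspa5 (2030, 1570 and 1923 CPM), Hsp90b1 (1839, 1574 and 1883 CPM), Hyou1 (248, 121 and 358 CPM) and Herpud1 (417, 252 and 353 CPM). Of 8 genes known to respond to glucocorticoids with at least 10 CPM, 6 were lowest in replicate 2, among them Tsc22d3 (377, 137 and 328 CPM), Zbtb16 (68.6, 4.03 and 44.1 CPM), Sgk1 (480, 372 and 515 CPM), Klf9 (57.1, 36.1 and 58.9 CPM) and Per1 (37.3, 21.8 and 33.9 CPM). Fkbp5, below that level on average, had 9.63, 1.57 and 14.4 CPM. Pdk4 (43.4, 45.0 and 38.8 CPM) did not share this order. The same library had the highest values for most of the Schwann cell and mitochondrially encoded genes.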
